A study of Mus musculus with 2 samples.

Results

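The AP-1 genes of the Fos and Jun families were described across the cell types found in tissue labelled mouse prefrontal cortex, with neurons set against microglia. The members were the rows of the count matrix with the symbols Fos, Fosb, Fosl2, Jun, Junb and Jund, 6 of 31040 genes, and every member had UMIs. Single nuclei were profiled by 10x 3′ RNA sequencing, in which each captured molecule carries a unique molecular identifier (UMI) and each nucleus a barcode. The METH mice received methamphetamine, a stimulant that releases dopamine, at 5 mg/kg by intraperitoneal injection for 14 days, and the Control mice received saline by the same route. All mice were wild type male C57BL/6 animals of 2 months, and the tissue of 3 mice made up the 1 library of each group.

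The matrix holds both libraries under barcodes that end in 1 or 2, and nothing in the labels or files ties a number to METH or Control. METH was therefore not compared with Control, the matrix was treated as 1 pooled sample. Library 1 and library 2 are given apart for the main contrasts and in the plots of levels, and a value with no library named is that of both together. With 1 library per group and mice pooled within it, there are no replicates and no test. Intervals are exact 95% intervals and cover counting error only. Of 20766 barcodes, 18002 nuclei were kept (8003 in library 1 and 9999 in library 2), with a median of 2978 UMIs, and 154 barcode sequences occurred in both libraries. Clusters were named from marker genes after the AP-1 genes had been left out of the clustering, and each class name below stands for a cluster that is like that cell type. The neurons were 11750 nuclei with a median of 3849 UMIs (8004 excitatory, 2354 inhibitory and 1392 striatal projection neurons), and the microglia were 879 nuclei with a median of 693 UMIs. Striatal projection neurons are not a cell type of the prefrontal cortex, and which tissue these nuclei came from was not tested. They were 428 nuclei in library 1 and 964 in library 2, and the neuron classes are also set against microglia one by one below. All 15 microglia markers were higher in the microglia than in the other nuclei, at a sum of 28454 CPM (UMIs per 1000000 UMIs of the class) against 517 CPM. The microglia also held neuron markers at 2348 CPM, against 4761 CPM in the neurons themselves.

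AP-1 is a dimer of basic leucine zipper proteins that binds a short palindromic DNA element. Jun proteins can pair with each other or with Fos proteins, while Fos proteins bind DNA only with a partner such as a Jun protein. In neurons, Fos, Fosb and Junb are immediate-early genes, switched on within minutes by calcium and cAMP signals that reach the factors CREB and SRF at their promoters, and in microglia and other macrophages AP-1 takes part in the response to injury and inflammation. A truncated product of Fosb accumulates in the striatum under repeated stimulant exposure, which 3′ counts of the gene cannot tell from the full-length form.

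The sequence just before the transcription start is shown for Fos, Fosb, Jun and Junb. Fosb and Junb were found in the same nuclei as Fos below, while Jun was not shown to be. Fosl2, which was found with Fos as well, is not shown. Each line gives the 140 bases upstream of the RefSeq start (GRCm38.p6), 5′ to 3′ on the strand of the gene, and capitals mark the motifs searched.
Fos: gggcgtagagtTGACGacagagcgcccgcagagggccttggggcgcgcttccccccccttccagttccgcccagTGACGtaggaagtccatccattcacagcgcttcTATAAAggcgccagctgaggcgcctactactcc
Fosb: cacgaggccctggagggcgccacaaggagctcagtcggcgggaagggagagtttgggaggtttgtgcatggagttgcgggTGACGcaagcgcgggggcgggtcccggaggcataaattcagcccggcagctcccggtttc
Junb: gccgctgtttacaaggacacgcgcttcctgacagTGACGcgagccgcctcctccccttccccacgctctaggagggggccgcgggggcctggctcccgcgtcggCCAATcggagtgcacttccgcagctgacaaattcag
Jun: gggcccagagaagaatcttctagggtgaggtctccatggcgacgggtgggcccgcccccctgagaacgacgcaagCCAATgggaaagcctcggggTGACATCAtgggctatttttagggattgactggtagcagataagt

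These windows lie at chr12:85473750-85473889 (plus strand) for Fos, chr7:19310046-19310185 (minus) for Fosb, chr8:84978749-84978888 (minus) for Junb and chr4:95052223-95052362 (minus) for Jun. TGACG, the core shared by cAMP response elements, began 129 and 66 bases before the start in Fos, 60 bases before it in Fosb and 106 bases before it in Junb. Jun holds no TGACG in the window but TGACATCA, a variant of the AP-1 element, 45 bases before its start. CCAAT stood 36 bases before the start of Junb and 65 before that of Jun, and TATAAA 33 bases before that of Fos. Both strands of the 250 bases upstream of 32851 RefSeq promoters were searched, and TGACG, which is contained in TGACGTCA, was found in 17.8%, CCAAT in 33.8%, TATAAA in 12.4% and TGACATCA in 2.93%. The full AP-1 element TGACTCA (4.46% of promoters), the palindrome TGACGTCA (1.55%) and the CArG box that SRF binds (1.47%) were found in none of the 6 members over these 250 bases. Sequence further upstream was not searched, so this does not show that a member lacks such a site. The RefSeq starts of Fosl2 and Jund lie 671 and 1210 bases from the GENCODE starts, so for these genes another window would be searched from the other start. Over the 250 bases TGACG was not found in Jund, nor in Fosl2, although Fosl2 was also higher in nuclei with a Fos UMI below. TGACG and TGACATCA were added to the search after the sequences had been seen, and whether TGACG goes with shared nuclei was not tested.

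In GENCODE annotation on GRCm38, Fos lies at chr12:85473890-85477273, Fosb at chr7:19302696-19310051 and Fosl2 at chr5:32135801-32157842, with 4 exons each in the first-numbered transcript. Jun lies at chr4:95049034-95052222, Junb at chr8:84974484-84978718 and Jund at chr8:70698949-70700616, and the coding transcript of each is 1 exon. For Junb that exon takes 1809 of the 4235 bases of the gene, whose span also covers a spliced transcript that is not annotated as coding. Each Jun gene overlaps a gene on the opposite strand, and whether the counting used strand is not given in the sources used here. Junos, which overlaps Jun, was at 9.04 CPM in neurons and 9.09 CPM in microglia (440 and 6 UMIs), a ratio of 0.994 with an interval of 0.453 to 2.72 that overlaps that of Jun below. Prdx2, which overlaps Junb and encodes a peroxiredoxin, was at 58.2 CPM in neurons and 132 CPM in microglia, in the same direction as Junb. The part of the overlapping genes in the counts of the Jun genes was not tested. Gm11175, which overlaps Jund, had 3 UMIs in neurons and 0 in microglia.

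Fos was the member that neurons held and microglia nearly lacked, whereas the 3 Jun genes made up a smaller share of the UMIs of neurons than of microglia, a direction that depended on the scale for all 3 and on the treatment of free RNA or the gene minimum for Jun and Jund (below). Fos was at 13.02 CPM in neurons (634 UMIs) and at 1.52 CPM in microglia (1 UMI), a ratio of 8.59 (1.54 to 340). Library 1 had 12.5 CPM in neurons and 0 UMIs in microglia. Taking that 0 as 3 UMIs gives a ratio of 1.20, while the exact interval included 1. Library 2 had 13.4 CPM in neurons and 2.68 CPM in microglia, a ratio of 5.02 with an interval of 0.895 to 199 that includes 1. The single microglial UMI is what sets this ratio, so its size is known only within the wide interval, and neither library alone showed the excess beyond counting error.

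Junb, a Jun protein that is a weak activator on its own, was at 48.1 CPM in neurons and 144 CPM in microglia (2344 and 95 UMIs), a ratio of 0.334 (0.272 to 0.415). Library 1 had 49.9 CPM in neurons and 175 CPM in microglia, and library 2 had 46.7 CPM in neurons and 120 CPM in microglia. Neurons were lower in both libraries, and the intervals of the classes did not overlap in either. Jund, the Jun protein found in most resting cells, was at 34.7 CPM in neurons and 123 CPM in microglia (1691 and 81 UMIs), a ratio of 0.283 (0.226 to 0.358). In library 1 Jund was at 26.1 CPM in neurons and 90.8 CPM in microglia, and in library 2 at 42.1 CPM in neurons and 147 CPM in microglia. Its level moved with the library and its ratio did not, at 0.288 in library 1 and 0.286 in library 2. Jun itself, the main partner of Fos and the target of the JNK kinases, was at 7.44 CPM in neurons and 24.3 CPM in microglia (362 and 16 UMIs), a ratio of 0.307 (0.186 to 0.542). Library 1 had 8.02 CPM in neurons and 28.0 CPM in microglia, and library 2 had 6.93 CPM in neurons and 21.4 CPM in microglia.

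Fosb and Fosl2 gave no such contrast. Fosb was at 1.85 CPM in neurons and 1.52 CPM in microglia (90 UMIs and 1), a ratio of 1.22 with an interval of 0.213 to 48.7. Fosl2, whose protein is Fra-2, was at 4.74 CPM in neurons and 4.55 CPM in microglia (231 and 3 UMIs), a ratio of 1.04 with an interval of 0.353 to 5.10. In library 2 the ratio of Fosb was 0.715, while in library 1 microglia had 0 UMIs of it. The ratio of Fosl2 was 1.33 in library 1 and 0.901 in library 2. At this depth, neither a large excess nor the lack of one could be shown for these genes.

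**Figure D1:**
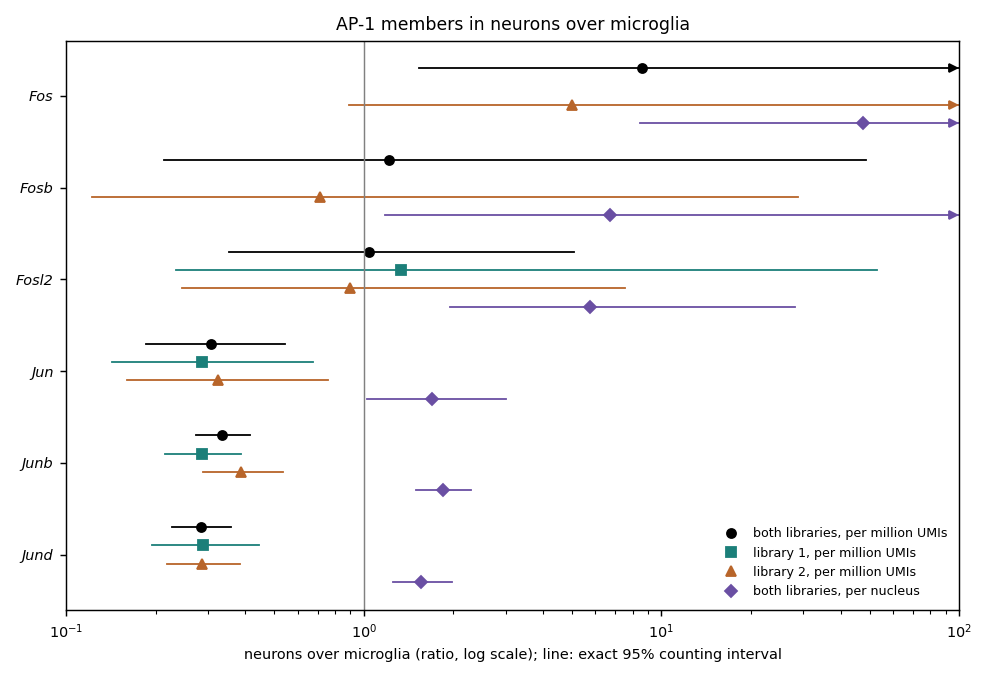
Ratio of neurons over microglia for each AP-1 member on a log axis, with exact 95% counting intervals as lines and arrows where they pass the axis, for both libraries together, each library alone, and both libraries per nucleus in place of CPM. Fos and Fosb have no point for library 1, where microglia had 0 UMIs; Jun, Junb and Jund lie at 0.283 to 0.334 in CPM and at 1.56 to 1.85 per nucleus.

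Taking a ratio past 2-fold as called, 1 of 6 members was higher in neurons and 3 were lower, where 15.8% of 15489 genes with at least 50 UMIs were higher and 24.7% were lower. The median ratio was 0.689 over the members and 0.894 over all these genes. In library 1, 0 members were called higher (17.4% of genes) and Jun, Junb and Jund lower (24.2%), and in library 2 Fos was higher by its ratio, though its interval included 1 (14.5%), and the same 3 genes lower (23.9%). The neuron classes were also set against microglia one by one. In excitatory neurons Fos was higher (9.30-fold, background 16.3%) and Jun, Junb and Jund were lower (0.320, 0.351 and 0.275, background 26.1%). In inhibitory neurons Fos was higher (7.50-fold, background 18.0%) and Jun, Junb and Jund were lower (0.254, 0.225 and 0.278, background 20.5%). In striatal projection neurons only Junb and Jund had 50 UMIs, both were lower (0.383 and 0.368, background 22.4%), and no member was called higher (background 16.5%).

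The direction for the Jun genes depended on the denominator, and for Jun and Jund on other choices too. With the upper level of free RNA described below subtracted, the ratio of neurons over microglia was 1.34 for Jun, a reversal, and 0.560 for Jund. For Jun that level was set by inhibitory neurons in library 1 and by striatal projection neurons in library 2. Microglial Jun, 8 UMIs in each library, lay just above it (28.0 against 25.8 CPM and 21.4 against 20.9 CPM), so the 1.34 is loosely known. With a minimum of 1000 genes per nucleus, which left 18 microglia, the ratio of Jund was 1.42, also a reversal. So few microglia hold very few Jund UMIs, so this value is loosely known. A neuron nucleus gave far more UMIs than a microglia nucleus, and per 100 nuclei Junb had 19.9 UMIs in neurons and 10.8 in microglia, a ratio of 1.85 (1.50 to 2.29). Jund had 14.4 UMIs per 100 neurons and 9.22 per 100 microglia, a ratio of 1.56 (1.25 to 1.98), and Jun 3.08 per 100 neurons and 1.82 per 100 microglia, a ratio of 1.69 (1.03 to 2.99). Fos had 5.40 UMIs per 100 neurons and 0.114 per 100 microglia. On this scale no member was lower in neurons, while Fos kept its direction. The scale carries the difference in depth, with medians of 3849 UMIs per neuron and 693 per microglia nucleus. A gene with an equal share of the UMIs in both would therefore also be higher per neuron. How all genes moved on this scale was not computed. Thinned to 500 UMIs per nucleus, which left out no nucleus, Junb was found in 2.70% of excitatory neurons (2.35 to 3.08) and in 6.94% of microglia (5.35 to 8.83), whereas unthinned it was found in 16.7% of excitatory neurons and 9.90% of microglia. Oligodendrocytes, whose median depth of 811 UMIs is close to that of microglia, held Junb in 1.21% of thinned nuclei. Jund was found in 1.82% of thinned excitatory neurons, 6.14% of microglia and 4.28% of oligodendrocytes, and Jun in 0.375% of the excitatory neurons, 1.14% of the microglia and 1.24% of the oligodendrocytes. Slc17a7, a glutamate transporter gene that microglia should lack, was found in 17.5% of thinned excitatory neurons and 19.7% of microglia, a measure of the background of neuronal RNA in the microglia.

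An upper level of free RNA was set for each class and library from its Slc17a7, relative to the class in which the gene was lowest on that scale. Excitatory neurons express Slc17a7, so their level was set instead from their myelin transcripts, multiplied by the ratio of Slc17a7 to myelin transcripts in the other classes that are not of the oligodendrocyte lineage. Junb in microglia stood above that level in both libraries (175 CPM against a level of 46.5 in library 1, and 120 CPM against 50.5 in library 2). Jund was at 90.8 against 84.5 CPM and 147 against 139 CPM, and Jun at 28.0 against 25.8 CPM and 21.4 against 20.9 CPM, with lower bounds under the level each time. In excitatory neurons, with the level set in that way, all members but Fosb exceeded it in both libraries, and Fos did so in inhibitory neurons as well (7.98 against 3.14 CPM and 14.5 against 5.38 CPM). Genes with short, mainly cytoplasmic mRNAs, such as those of ribosomal proteins, moved the same way as the Jun genes: 13 of 15 measured were lower in neurons, where 24.7% of all genes were, with a median ratio of 0.309 and sums of 1848 CPM in neurons and 7400 CPM in microglia. Heat shock genes, which respond to handling of tissue, were lower in neurons for 4 of 6, with 2 of 5 lower and 1 higher in library 1 and 4 of 6 lower in library 2, and with sums of 342 CPM in neurons and 912 CPM in microglia. In oligodendrocytes the cytoplasmic list summed to 5305 CPM and the heat shock list to 817 CPM while Junb was at 29.8 CPM. The part of such RNA in the difference between neurons and microglia was not tested.

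Across the 9 classes of at least 100 nuclei, each member had its own order. Fos was at 18.8 CPM in oligodendrocyte precursors (10 UMIs), 14.1 in excitatory neurons, 11.8 in neuroblasts or dividing progenitors, 11.4 in inhibitory neurons, 5.67 in striatal projection neurons, 4.90 in oligodendrocytes, 2.53 in astrocytes and 1.52 in microglia, with 0 UMIs in differentiating oligodendrocytes. The one step between neighbours beyond counting error was that from inhibitory neurons to striatal projection neurons, a ratio of 2.00 (1.24 to 3.37). It came from library 2, with 14.5 CPM in inhibitory and 5.69 CPM in striatal projection neurons, while library 1 had 7.98 and 5.62 CPM with overlapping intervals. The level in precursors was 6.30 CPM in library 1, from 1 UMI, and 24.1 CPM in library 2. Junb was at 144 CPM in microglia and then at 55.2 in striatal projection neurons, 52.7 in oligodendrocyte precursors, 50.5 in excitatory neurons, 35.4 in astrocytes, 35.0 in neuroblasts, 32.3 in inhibitory neurons, 29.8 in oligodendrocytes and 16.2 in differentiating oligodendrocytes, and only the first step, 2.61 (2.03 to 3.34), was clear. Microglia stood above striatal projection neurons in both libraries, at 175 against 59.97 CPM in library 1 and 120 against 53.4 CPM in library 2. Jund was at 123 CPM in microglia, 94.6 in oligodendrocytes, 83.4 in astrocytes and 80.9 in oligodendrocyte precursors, and then at 50.4 in neuroblasts, 45.1 in striatal projection neurons, 43.3 in differentiating oligodendrocytes, 34.1 in inhibitory neurons and 33.8 in excitatory neurons. Its clear step was that from precursors to neuroblasts, 1.60 (1.09 to 2.32). That step was in library 2 (105 CPM in precursors and 60.4 CPM in neuroblasts) and not in library 1 (25.2 and 25.4 CPM), where astrocytes at 33.0 and differentiating oligodendrocytes at 30.3 CPM also lay near the neuron classes at 22.2 to 28.1 CPM.

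Jun was at 32.8 CPM in astrocytes, 28.2 in oligodendrocyte precursors, 24.3 in microglia and 22.4 in oligodendrocytes, against 6.17 to 7.76 CPM in the neuron classes, though no neighbours in its order differed beyond counting error. Among the glial classes Jun exceeded the upper level of free RNA in precursors of library 2 alone (34.9 against 14.2 CPM), and Jund exceeded it in none of them in either library. Over the 9 classes Jun and Jund had a Pearson correlation of 0.891 on log2(CPM + 10), a description of classes that share libraries and differ in depth. Fosb ran from 0 UMIs in 3 classes to 3.15 CPM in oligodendrocytes, and Fosl2 from 1.05 CPM in oligodendrocytes to 5.64 in their precursors, with no clear step for either. Jund was higher in library 2 than in library 1 in each of these 9 classes, for instance 45.1 CPM for library 2 and 22.2 CPM for library 1 in inhibitory neurons, and short cytoplasmic mRNAs summed to 2502 CPM in library 2 and 1092 CPM in library 1 over neurons. Which treatment these libraries carry is not known from the files.

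**Figure D2:**
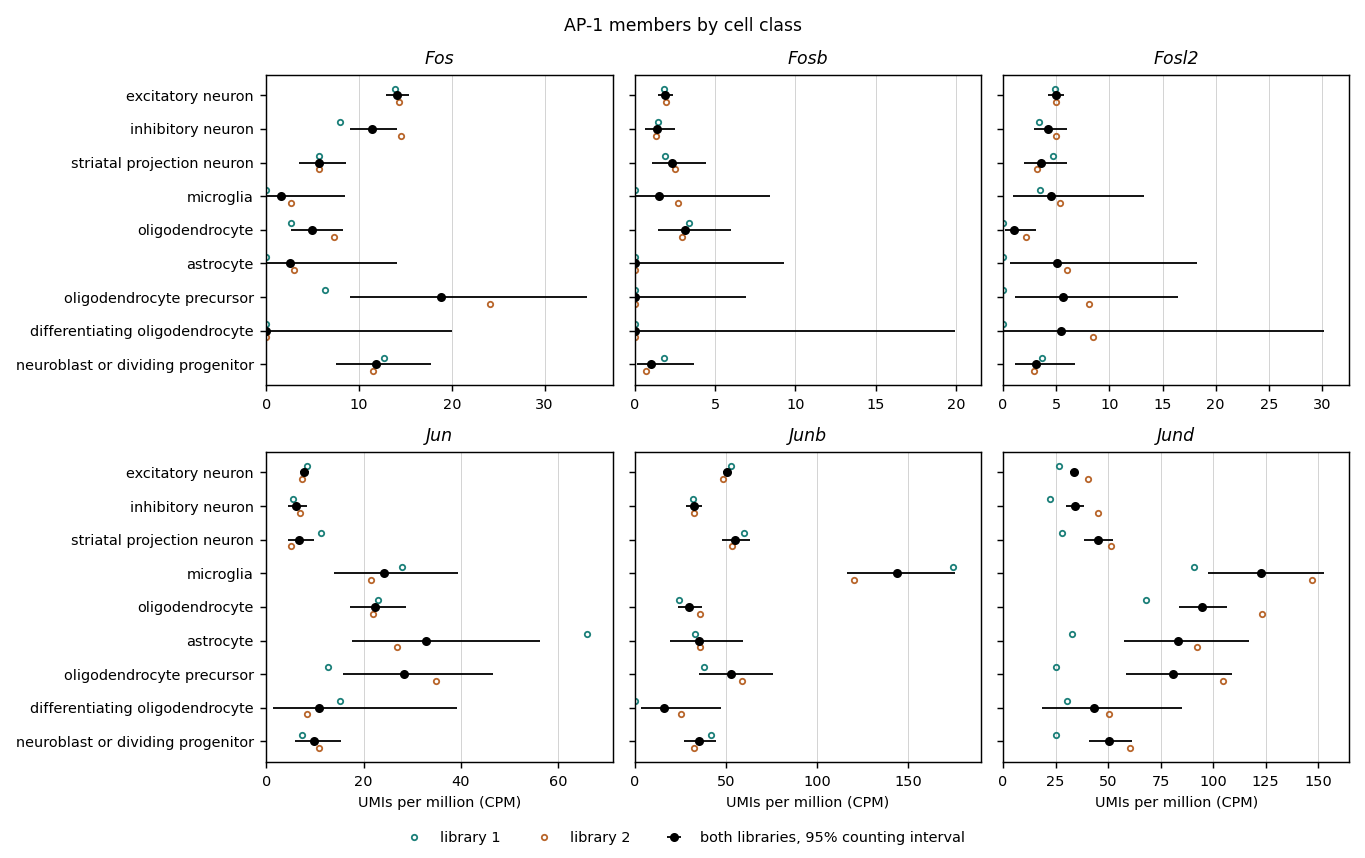
Level of each AP-1 member in CPM (linear axes that differ between panels) in 9 cell classes, with open points for library 1 and library 2 and filled points for both with exact 95% Poisson intervals. Fos is at 14.1 CPM in excitatory neurons and 1.52 in microglia, Junb reaches 144 CPM in microglia, and library 2 lies above library 1 for Jund in each class.

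The genes whose class profile was most like that of a member were listed by Pearson correlation over the same 9 classes among 12833 genes. They were Pvr, Camsap3 and Sorcs3 for Fos (0.972, 0.968 and 0.959), H6pd, Ccni and Ptp4a3 for Junb (0.974, 0.971 and 0.967) and Glo1, Mgp and Ywhae for Jund (0.994, 0.985 and 0.979). For Jun they included Gna11 and Cavin3 (0.987 and 0.962), for Fosl2 Hs2st1 and Pid1 (0.884 and 0.866), and for Fosb Wdr95, Mrpl50 and Gm15478 (0.961, 0.930 and 0.921). No member was among the 3 nearest genes of another.

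Within neurons, 4 of the 6 members were highest in claustrum neurons, the deep cells beside the insular cortex (181 nuclei, 65 in library 1 and 116 in library 2). Nr4a2, a gene of the activity-induced Nr4a family, was among the markers that name this subclass, beside Ntng2, Synpr and Gnb4. Fos was at 61.7 CPM there and 12.9 CPM in the other excitatory neurons (58 and 471 UMIs), a ratio of 4.79 (3.58 to 6.30). The 58 UMIs came from 20 of the 181 nuclei, and the interval does not cover the spread between nuclei. In library 1 it was at 94.0 CPM in claustrum neurons and 12.3 CPM in the others, and in library 2 at 43.4 CPM in claustrum neurons and 13.4 CPM in the others. Both libraries thus showed the excess, by 7.65-fold in library 1 and 3.23-fold in library 2. Fosb was at 9.58 CPM in claustrum neurons and 1.70 CPM in the others (9 and 62 UMIs), a ratio of 5.65 (2.47 to 11.4). Its ratio was 9.26 in library 1 and 3.71 in library 2, where it rested on 4 UMIs and its interval (0.957 to 10.4) included 1. Fosl2 was at 16.0 CPM in claustrum neurons and 4.68 CPM in the others (15 and 171 UMIs), a ratio of 3.41 (1.87 to 5.79). Its ratio was 6.65 in library 1 and 1.70 in library 2, and in library 2 alone it did not pass 2-fold. Junb was at 112 CPM in claustrum neurons and 48.9 CPM in the others, a ratio of 2.28 (1.86 to 2.78), with 2.34 in library 1 and 2.29 in library 2. Jund, at 44.7 CPM in claustrum neurons and 33.5 CPM in the others (ratio 1.33, 0.956 to 1.81), was not shown to differ. Nor was Jun, at 7.45 CPM in claustrum neurons and 7.77 CPM in the others (ratio 0.959, 0.382 to 2.00). Thus 4 of 6 members were called higher, where 5.40% of 14563 genes were, and 0 lower, where 8.21% were. The same counts had placed these 4 members highest in this subclass, so the calls are not separate support.

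Among 13 named neuronal subclasses, claustrum neurons had the highest Fos, Fosb, Fosl2 and Junb in each library. In library 2 the lead was within counting error for Fosb (6.67 CPM from 4 UMIs, against 6.19 CPM in layer 5/6 near-projecting neurons). The same held there for Fosl2 (8.34 CPM from 5 UMIs, against 6.33 CPM in the layer 6 intratelencephalic subclass). Over both libraries, the next for Fos was the layer 6 intratelencephalic subclass at 14.5 CPM, a ratio of 4.25 (2.75 to 6.63). For Junb it was layer 6 corticothalamic neurons at 60.5 CPM, a ratio of 1.85 (1.46 to 2.33), and for Fosl2 parvalbumin interneurons at 5.93 CPM, a ratio of 2.69 (1.19 to 6.14). For Fosb the next was the indirect-pathway striatal projection neuron at 4.25 CPM, and that step was not clear. Jun and Jund were highest in indirect-pathway striatal projection neurons (10.2 and 55.3 CPM), without a clear step. At the low end, Fosl2 had 0 UMIs in layer 5/6 near-projecting neurons and Fosb 0 in direct-pathway striatal projection neurons, where 3 UMIs would be 5.16 and 3.70 CPM.

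**Figure D3:**
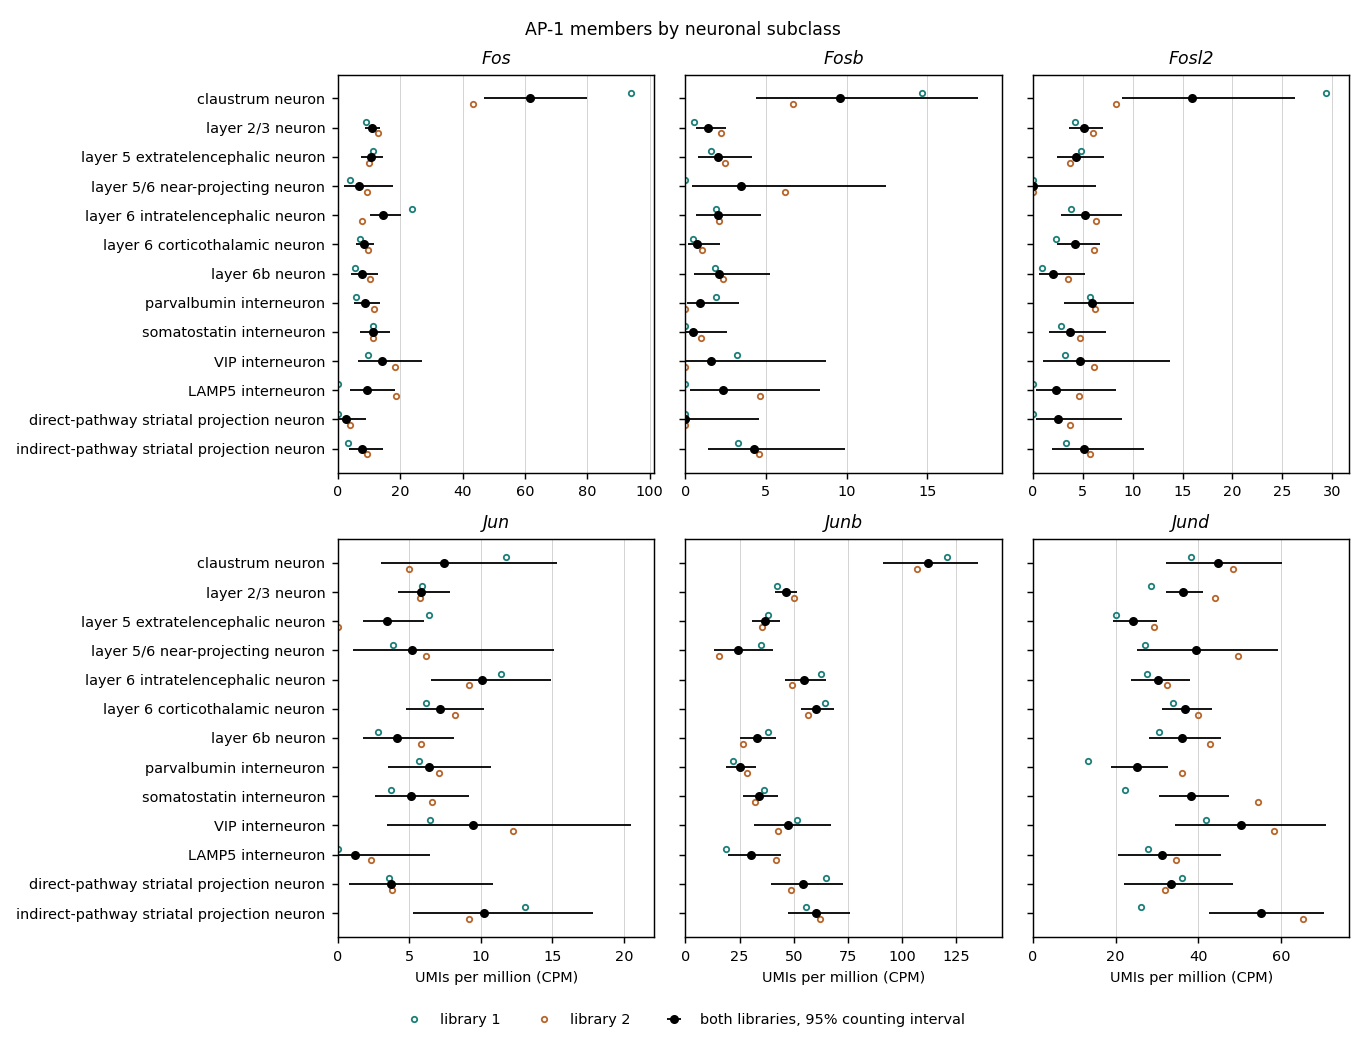
Level of each AP-1 member in CPM (linear axes that differ between panels) in 13 neuronal subclasses, with open points for each library and filled points for both with exact 95% Poisson intervals. Claustrum neurons stand at the top for Fos (61.7 CPM), Fosb (9.58), Fosl2 (16.0) and Junb (112), and within the spread of the others for Jun and Jund.

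Some excitatory clusters that received no name also stood out, and they were singled out after their values had been seen. A cluster of 341 nuclei led by Fam19a2, Abi3bp and Cartpt had Fos at 45.5 CPM and the other excitatory nuclei 13.1 CPM (ratio 3.48, 2.58 to 4.62), with Junb at 96.1 CPM in the cluster and 49.0 CPM in the others (ratio 1.96). Jun was at 27.8 CPM in a cluster of 238 nuclei led by Ntng1, Slc38a3 and Fyb2 and at 7.29 CPM in the other excitatory nuclei (ratio 3.81, 2.40 to 5.80), and it was at 27.7 and 27.9 CPM in the libraries. In that cluster Junb was lower, at 32.4 CPM against 50.9 CPM in the others (ratio 0.637, 0.422 to 0.923), and no other member had an interval above 1.

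Within excitatory neurons, most nuclei had no UMI of a given member. A Fos UMI was found in 379 of 8004 nuclei (4.74%), and 31 nuclei with 3 or more held 25.5% of the Fos UMIs, up to 9 in a nucleus. For Junb, 119 nuclei of 3 or more UMIs held 26.7% of its UMIs, up to 11. By contrast 7 nuclei with 3 or more Jund UMIs held 1.89%, although Jund had more UMIs than Fos (1267 and 529), and no excitatory nucleus had 3 UMIs of Jun or Fosb. Fos and Junb thus had a larger part of their UMIs in nuclei with several than Jund, although Junb was found in more nuclei (16.7%) than Jund (14.4%). A Fos UMI was found in 11.0% of claustrum nuclei (6.88 to 16.5), 5.77% of layer 5 extratelencephalic, 3.79% of layer 2/3, 2.56% of layer 6 corticothalamic and 1.79% of layer 5/6 near-projecting nuclei. These shares were not adjusted for depth, and the medians were 4976, 6615, 4751, 3655 and 2536 UMIs in the same order.

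The nuclei with a Fos UMI held more Fosb, Fosl2 and Junb than those without. Junb was at 216 CPM in the 379 Fos-positive nuclei and 41.0 CPM in the 7625 Fos-negative ones (439 and 1455 UMIs), a ratio of 5.26 (4.72 to 5.86), with 4.98 in library 1 and 5.55 in library 2. Fosb was at 11.8 CPM in Fos-positive and 1.32 CPM in Fos-negative nuclei (24 and 47 UMIs), a ratio of 8.90 (5.21 to 14.9), with 8.75 in library 1 and 9.03 in library 2. Fosl2 was at 13.8 CPM in Fos-positive and 4.45 CPM in Fos-negative nuclei (28 and 158 UMIs), a ratio of 3.09 (1.99 to 4.64), with 3.89 in library 1 and 2.42 in library 2. These 3 genes were higher in Fos-positive nuclei in both libraries. Jund was at 46.2 CPM in Fos-positive and 33.1 CPM in Fos-negative nuclei, a ratio of 1.40 (1.12 to 1.72) that stayed under 2-fold. Jun was at 9.34 CPM in Fos-positive and 7.67 CPM in Fos-negative nuclei, a ratio of 1.22 (0.722 to 1.94). So 3 of the other 5 members were called higher, where 1.02% of 14562 genes were, and 0 lower, where 3.06% were. Fos-positive nuclei were somewhat deeper, with a median of 4918 UMIs against 4354 UMIs in Fos-negative nuclei, and the ratios are those of CPM. Without the claustrum nuclei the ratios were 5.00 for Junb, 6.80 for Fosb and 2.38 for Fosl2.

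The levels followed the number of Fos UMIs. In nuclei with 0, 1, 2 and 3 or more Fos UMIs (7625, 302, 46 and 31 nuclei), Junb was at 41.0, 150, 278 and 758 CPM, and a Junb UMI was found in 15.2%, 41.4%, 60.9% and 93.5% of them. Fosb was at 1.32, 6.82, 15.7 and 54.1 CPM and Fosl2 at 4.45, 8.06, 15.7 and 66.2 CPM. Jund was at 33.1, 45.2, 39.1 and 66.2 CPM, and Jun at 7.67, 8.68, 11.7 and 12.0 CPM with intervals that all overlap. Of the 379 Fos-positive nuclei 182 had Junb (48.0%), 83 Jund, 24 Fosl2, 20 Fosb and 18 Jun.

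**Figure D4:**
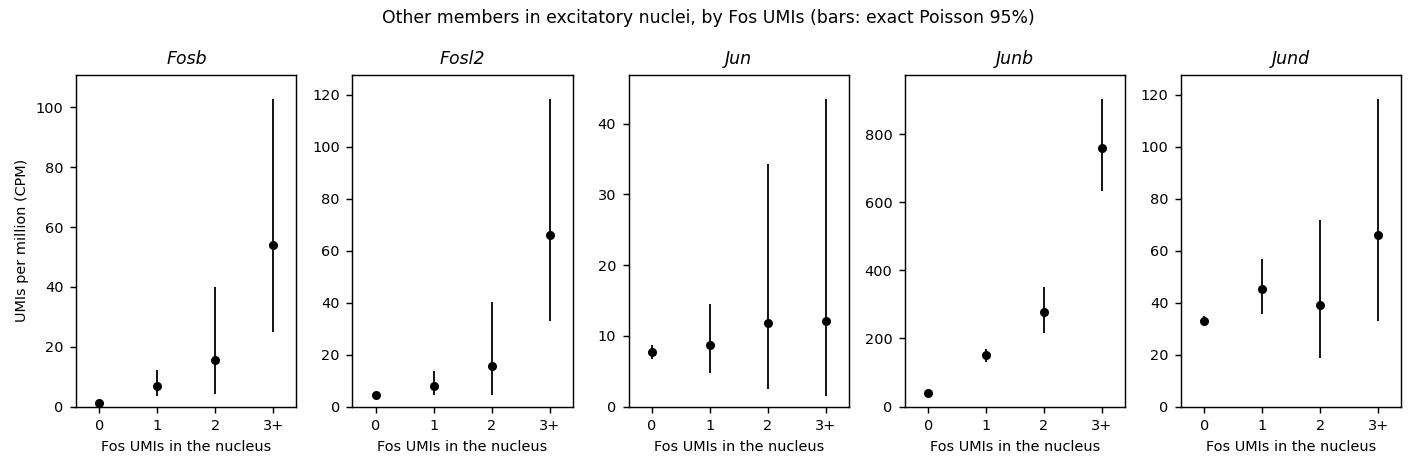
Level of the other AP-1 members in CPM (linear axes that differ between panels) in excitatory nuclei grouped by their number of Fos UMIs, with exact 95% Poisson intervals as bars. Junb runs through 41.0, 150, 278 and 758 CPM, whereas the intervals of Jun overlap throughout.

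The same nuclei were also split by each member in turn. Nuclei with a Fosb UMI (66) had Fos at 116 CPM and those without at 13.1 CPM (ratio 8.84), and Fosl2, Junb and Jun were also higher (7.07, 4.88 and 3.27). Nuclei with a Fosl2 UMI (160) had Fos at 68.1 CPM and those without at 12.8 CPM (ratio 5.31), with Fosb 7.76-fold and Junb 2.18-fold higher. Nuclei with a Jun UMI (281) had Fos at 16.4 CPM and those without at 14.0 CPM (ratio 1.17, 0.743 to 1.76). Jun thus was not shown to share nuclei with Fos, while it did with Fosb (ratio 3.57, 1.56 to 7.23, from 9 UMIs) and, by less, with Junb (1.47, 1.20 to 1.79). Nuclei with a Jund UMI (1155) had Fos at 22.5 CPM and those without at 12.5 CPM (ratio 1.79, 1.46 to 2.19). These splits use the same counts in both directions, and a mirrored pair is 1 observation.

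**Figure D5:**
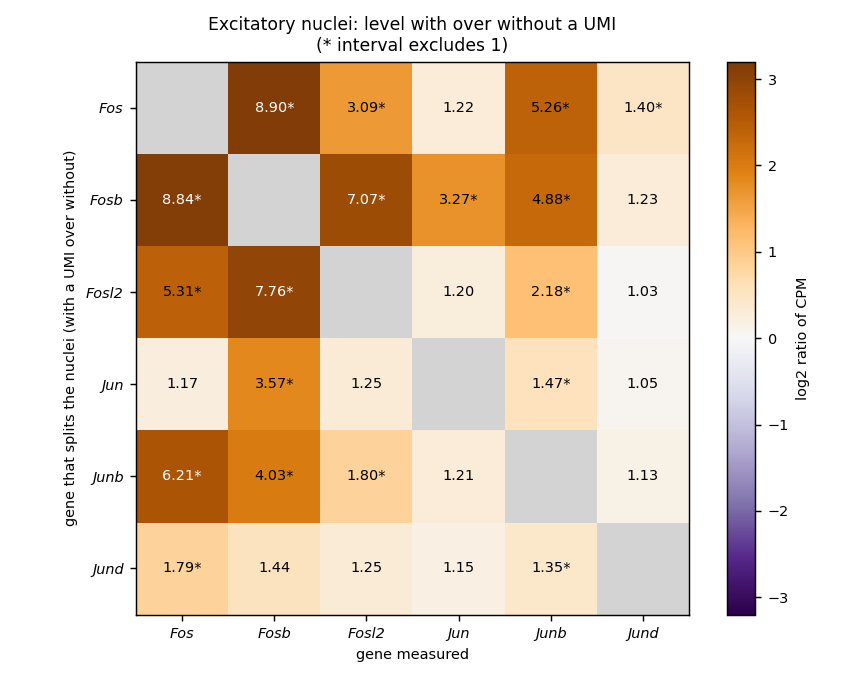
For excitatory nuclei, ratio of the level (CPM) of the gene in each column in nuclei with a UMI of the gene in each row over nuclei without one, printed in the cell and coloured on a log2 scale, with asterisks where the exact 95% counting interval excludes 1. Fos, Fosb, Fosl2 and Junb form a block of ratios from 1.80 to 8.90, and the row of Jun has asterisks for Fosb (3.57) and Junb (1.47) alone.

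In the other neurons the split rested on few nuclei. In striatal projection neurons Junb was at 287 CPM in 20 Fos-positive nuclei and 51.4 CPM in 1372 Fos-negative ones, a ratio of 5.59 (3.25 to 9.08). In inhibitory neurons it was at 59.5 CPM in 64 Fos-positive and 31.5 CPM in 2290 Fos-negative nuclei, a ratio of 1.89 whose interval (0.991 to 3.30) includes 1.

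The other genes of the pathway were counted from lists of upstream, related and downstream genes. Of the kinases and factors upstream of AP-1, 16 were measured between neurons and microglia, 4 were higher in neurons and 2 lower (median ratio 1.17, against 0.894 over all genes, of which 15.8% were higher and 24.7% lower). In library 1 alone 1 of them was lower. Mapk10, which encodes the neuronal kinase JNK3, was 5.80-fold higher, Camk4, a calcium-dependent kinase, 5.65-fold, Mkl2, a coactivator of SRF, 2.66-fold, and Mapk8, which encodes JNK1, 2.02-fold. Mapk3, which encodes ERK1, had a ratio of 0.405 and Elk4, a factor that binds with SRF, one of 0.317. Of 13 measured relatives and partners 0 were higher and 5 lower (median 0.594), among them Maf (0.0985), Batf3 (0.131), Creb5 (0.302) and Mafk (0.384, from 3 microglial UMIs). Maf is a factor of the macrophage lineage, at 385 CPM in microglia. Of 8 negative regulators Dusp6, a phosphatase of ERK, was lower (0.186) and none was higher (median 0.808).

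Of 9 described AP-1 targets, Gria2, an AMPA receptor subunit, and Camk2a, a synaptic kinase that also served as an excitatory marker, were higher in neurons (3.50 and 2.05-fold) and Ccnd1, which encodes cyclin D1, was lower (0.237), with a median of 0.806. In library 2 alone 1 of the targets was higher. Of 24 other activity genes 7 were higher in neurons and 6 lower (median 0.867), where 15.8% of all genes were higher and 24.7% lower. By library, 5 of 22 were higher in library 1 and 2 of 23 in library 2. Nr4a3 (4.50-fold, from 1 microglial UMI), Homer1 (3.90), Npas4 (2.98) and Arc (2.42) were among the higher ones, and Rgs2 (0.144), Klf2 (0.264), Ier5 (0.314) and Btg2 (0.332) among the lower ones. The list thus held genes of either direction, as the AP-1 members did.

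Between Fos-positive and Fos-negative excitatory nuclei, 15 of the 24 other activity genes were called higher and 0 lower, with a median ratio of 3.10 against 0.976 over all genes, of which 1.02% were higher and 3.06% lower. Egr2 was 15.6-fold higher, Egr4 7.81-fold, Btg2, an antiproliferative gene, 7.53-fold, and Npas4, a factor induced by calcium entry, 4.84-fold. Of 8 negative regulators, the phosphatase genes Dusp1 (4.34-fold) and Dusp6 (2.98-fold) were higher (median 1.23), and of 9 targets Scg2, which encodes a secretogranin, was (2.06-fold, median 1.06). None of 16 upstream kinases and factors (median 0.976), 6 heat shock genes (median 1.26) or 15 short cytoplasmic mRNAs (median 1.02) was called, and of 13 relatives 0 were higher and 1 lower (median 1.03). The heat shock and cytoplasmic lists, which moved with the Jun genes between neurons and microglia, had no called gene in this split.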

How the data were processed

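The deposited file is a matrix of whole UMI counts. Cell Ranger 1.3.0, Seurat 3.1.4 and mm10 are named per the submitters' processing notes, the matrix carries software version 3.1.0 per the file headers, and filters on barcodes are not given in the sources used here. The matrix held 66566100 UMIs, 31273163 in library 1 and 35292937 in library 2. A UMI count limits the precision of rare genes: Fosb had 117 UMIs in all barcodes, Fosl2 292, Jun 611, Fos 801, Jund 2723 and Junb 3226.

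Barcodes under 500 genes were dropped, as were the doublets that Scrublet in Scanpy 1.11.5 called in each library (889 and 660). The AP-1 genes and the other lists were left out, except the short cytoplasmic mRNAs and Gria2, Camk2a, Pdyn and Penk. Nr4a2, a claustrum marker, was in no such list and was kept. Counts were scaled to 10000 per nucleus and log-transformed, and 3000 variable genes were reduced to 50 components. Leiden clusters were made at resolution 1 from 20 neighbours (Python 3.11.15, scikit-learn 1.9.0, igraph 0.11.9). Unnamed clusters of at least 60 nuclei were split again at 0.5, and each neuron class was clustered again at resolution 1. Clusters were named from marker lists, which gave 12 classes and left 514 nuclei (2.86%) unnamed. The neuroblast or dividing progenitor class, 824 nuclei, is loosely held: at resolution 2 that name went to 62 nuclei.

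UMIs were summed per class and given as counts per 1000000 (CPM) with exact Poisson intervals, ratios have exact conditional binomial intervals, and shares exact Clopper-Pearson intervals, all at 95% (pandas 2.3.3, SciPy 1.17.1, NumPy 2.4.6). A ratio was called past 2-fold for genes with at least 50 UMIs over both groups, and a count of 0 was taken as 3 counts for a bound. The free RNA level of a gene in a class is an upper limit, since the gene's own expression in the class that sets it counts as free RNA. The ratio code was tested on simulated data. The 6 members were described in full. From the other lists, at most 4 genes past 2-fold were named in each direction between neurons and microglia, and for likeness the 3 genes of highest correlation among those with at least 200 UMIs. Some genes that these rules select are not reported here. For the Fos-positive split, the genes named from the lists were chosen after their values had been seen. Members, lists and motifs were chosen with earlier results of these data known. Sequences are from RefSeq, matched for all 6 members by symbol.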

Additional observations from a re-analysis of the deposited data

Results flagged for a closer look

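The 1215 barcodes under the minimum of 500 genes, which no comparison uses, held AP-1 UMIs above the 4.42 CPM that 3 UMIs would give. Fos was at 13.3 CPM (9 UMIs, 6.07 to 25.2), Jun at 22.1 CPM (15 UMIs, 12.4 to 36.5), Junb at 102 CPM (69 UMIs, 79.1 to 129) and Jund at 115 CPM (78 UMIs, 90.9 to 143), while Fosb and Fosl2 had 1 UMI each. These barcodes had microglia markers at 12209 CPM, oligodendrocyte markers at 16544 CPM and Slc17a7 at 417 CPM, so they held RNA of several classes. In library 1 (998 of the barcodes) Fos was at 8.99, Jun at 25.2, Junb at 115 and Jund at 91.7 CPM, and in library 2 (217 barcodes) Fos was at 32.7, Jun at 8.17, Junb at 40.8 and Jund at 220.5 CPM, so these levels differed between the libraries.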

How the results depend on the processing

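No paired analysis was possible because each group has 1 library and no library is tied to a group. Of 48 alternative values of the neuron to microglia ratios that could be computed, 34 lay within the interval of the main value and 9 moved outside it. The other 5 reversed, which means that a ratio called past 2-fold crossed 1. Alternatives without a finite ratio were not counted, such as Fos and Fosb in library 1, where microglia had 0 UMIs. A value within a wide interval can lie on the other side of 1, as for Fosb and Fosl2 in library 2. Per nucleus, chosen after seeing the data, Jun, Junb and Jund reversed to 1.69, 1.85 and 1.56, and Fosl2 moved to 5.76. These values carry the greater depth of the neurons, and the ratio over all genes was not computed on that scale. With the upper level of free RNA subtracted, Jun reversed to 1.34, Jund moved to 0.560 and Fosl2 to 138, a ratio to a microglial level near 0. The Jun value is loosely known, since little microglial Jun was left above that level. With a minimum of 1000 genes, which left 18 microglia, Jund reversed to 1.42 and Junb moved to 0.493, both from very few microglial UMIs. In the 68 neurons of no more than 901 UMIs, the 90th percentile of microglia, the ratio was 0.781 for Jun, 0.263 for Junb and 0.154 for Jund. These 68 nuclei held very few UMIs of each gene, so the ratios are loosely known. Against the 240 microglia with no neuron marker UMI it was 0.236 for Junb and 0.200 for Jund. The Fos ratio, set by 1 UMI, was 4.31 with doublets kept and 2.17 against the 240 microglia. The causes were not tested.

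The neuron levels with free RNA subtracted were 9.65 CPM for Fos, 0 for Fosb, 3.26 for Fosl2, 1.64 for Jun, 34.8 for Junb and 4.01 for Jund, and the microglia levels were 0, 0, 0.0236, 1.22, 95.3 and 7.16 CPM in the same order of genes. With a minimum of 1000 genes, microglia had 0 UMIs of Fos, Fosb and Fosl2, Junb at 97.7 CPM and Jund at 24.4 CPM. Median-of-ratios size factors, over 11581 genes, gave neuron levels of 14.4 for Fos, 53.3 for Junb and 38.5 for Jund. In library 1 alone microglia had 0 UMIs of Fos and Fosb and Jund at 90.8 CPM, and the Jund level of neurons was 26.1 CPM with library 1 alone and 42.1 CPM with library 2 alone.

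From library 1 alone the claustrum ratio was 7.65 for Fos and 6.65 for Fosl2, from library 2 alone 3.23 for Fos and 1.70 for Fosl2, and for Jund it was 2.85 with free RNA subtracted. With at least 2 Fos UMIs (77 nuclei), the Fos-positive ratios were 23.3 for Fosb, 7.99 for Fosl2 and 11.4 for Junb, and for Junb 5.95 between the 25th and 75th percentile of UMIs. The splits without claustrum nuclei and within subclusters and libraries (Mantel-Haenszel ratios of 5.13 for Junb, 8.03 for Fosb and 2.64 for Fosl2) were added after seeing the data. Unthinned, the share with Fos was 4.74% in excitatory neurons, and that with Junb 16.7% in excitatory neurons and 9.90% in microglia. Thinned to 1000 UMIs, Fos was in 1.36% and Junb in 4.61% of excitatory neurons, and Fos in 0 of the 53 microglia that remained. The minimum of 1000 genes was applied to the same clusters, without clustering again.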
